A study of Drosophila melanogaster with 3 samples.

Results

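Pair-rule genes are segmentation genes whose loss removes alternate segment-wide units of the Drosophila embryo. The 9 examined here were even skipped (eve), fushi tarazu (ftz), runt (run), odd skipped (odd), paired (prd), sloppy paired 1 and 2 (slp1 and slp2), odd paired (opa) and ftz transcription factor 1 (ftz-f1). They were chosen by name from 13968 protein-coding genes and not by a binding threshold, but with earlier results of these data known. Every summit inside a gene or within 5000 bp of either end was counted as that gene's. The data were chromatin immunoprecipitation followed by sequencing (ChIP-seq) of Achaete (Ac) in 3 biological replicates of a single group. Each replicate was whole, mixed-sex Drosophila melanogaster embryos aged 0 to 8 hours from a transgenic line that stably expresses Ac with green fluorescent protein (GFP) at its C terminus, and the antibody was against GFP. An untagged line and the control alignment were not analysed here. Whole embryos mix cells and stages, so a weak region from few bound cells and one from little binding per cell cannot be told apart. No label ties a replicate to its own embryo collection, and the SD over replicates may therefore be a technical one.

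In the blastoderm, gap proteins and maternal gradients set up stripes of pair-rule transcription, and the pair-rule proteins then position the stripes of segment polarity genes. All 9 genes encode transcription factors. Many of them are used again later in the embryo, in neuroblasts, neurons, gut or muscle precursors. Ac is a proneural basic helix-loop-helix protein that pairs with Daughterless (Da), binds E-boxes and promotes neural precursor fate in clusters of ectodermal cells.

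Of the 9 genes, 4 had a peak of the authors' optimal list, and they held 8 of its 2756 peaks. These were opa with 3 summits, slp1 and slp2 with 2 each and odd with 1. Peaks were ranked by the authors' signal value, rank 1 being the strongest, and the optimal list was identical to the first 2756 regions of the pooled list, which was made from the 3 replicates together and holds 30000. The 4 of 9 members are 44.4% (exact Clopper-Pearson 95% interval 13.7 to 78.8%, counting error only), against 28.2% of all protein-coding genes by the same rule, a share inside that interval. For 8 of the 9 members, all but ftz-f1, no other protein-coding gene reached into the counted window. Among the 647 genes in the genome with that isolation, 18.4% had an optimal summit. At least 2 optimal summits were found at 3 members and at 8.15% of all genes, and at least 3 at 1 member and at 2.96% of all genes. No test was run between the members and other genes. With the 2756 strongest regions of a replicate called its top regions, optimal summits present in those of both replicates 1 and 3 numbered 4 at 3 members, and the same counts, 4 and 3, held for replicates 1 and 2. For replicates 2 and 3 they numbered 6 at 4 members. The gene missing from the first 2 pairs was opa.

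Each replicate's own list gave a like number. Replicate 1 had a top region at 5 members, against 28.8% of all genes, replicate 2 at 4, against 27.5%, and replicate 3 at 5, against 27.3%. The mean was 4.67 ± 0.577 members (SD, n = 3). At a q value of at most 0.05, 5 members had a region in replicate 1 (33.5% of all genes), 8 in replicate 2 (56.9%), 9 in replicate 3 (51.7%) and 7 in the pooled list (50.7%). The replicate lists all hold 30000 regions, and those passing that q value numbered 3453, 9954 and 7898 in replicates 1, 2 and 3. Read depth is unknown because no list gives counts, and its part in these differences was not tested.

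**Figure D1:**
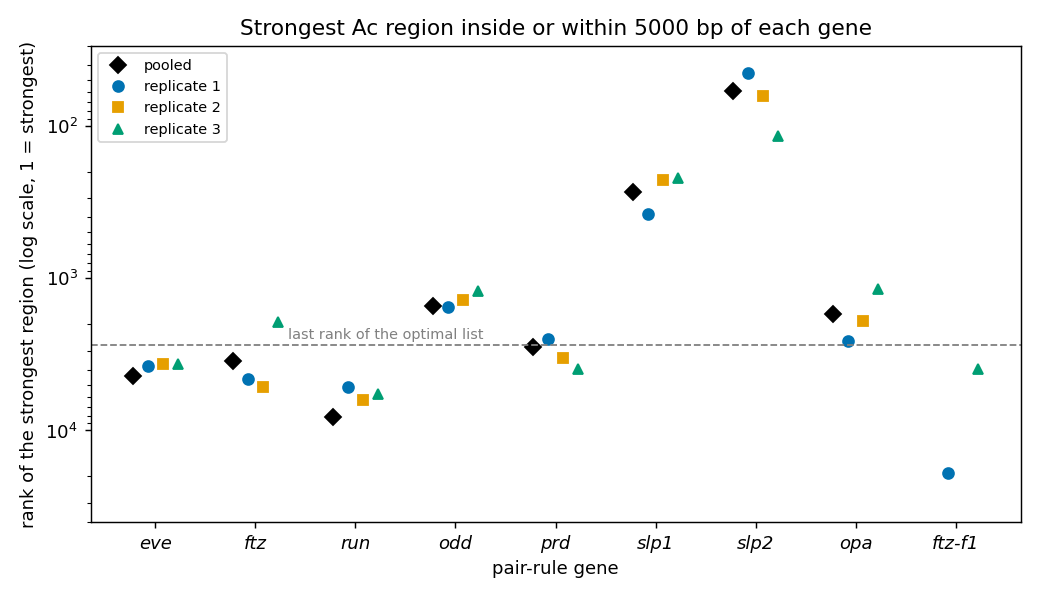
Rank of the strongest Ac region inside or within 5000 bp of each pair-rule gene (log scale, strongest at the top), in the pooled list and in each of the 3 replicates. slp2 and slp1 lie between ranks 45 and 382, odd and opa between 1188 and 2585, and eve and run lie below the last rank of the optimal list, 2756 (dashed), in every list. For ftz-f1 only replicates 1 and 3 held a region.

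slp1 and slp2 encode a pair of related forkhead-domain proteins that act as repressors in the posterior part of each parasegment, and they had the strongest pair-rule regions. Both genes are on the plus strand of 2L (dm6), slp1 (FBgn0003430) from 3825675 to 3827099 and slp2 (FBgn0004567) from 3836840 to 3839185. All 4 of their optimal summits lay in the 9740 bp between the end of slp1 and the start of slp2. The strongest was at 3832522, 4318 bp before the start of slp2. Its pooled rank was 59, and its ranks in replicates 1, 2 and 3 were 45, 64 and 117 (75.3 ± 37.3 over the replicates, SD, n = 3). The replicate summits lay 0, 13 and 7 bp from the pooled one (replicates 1, 2 and 3), so position and rank recurred in every replicate. Only 1.07% of all genes had a region this strong in their window. The summit is 5423 bp past the end of slp1 and was therefore counted for slp2 alone.

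The slp1 summits were at 3827765 and 3827972, 666 and 873 bp past its 3′ end and 207 bp apart. Their 2 peaks cover nearly the same bases, from 3827700 to 3828027 and from 3827700 to 3828029. The first ranked 273 in the pooled list, and 382, 226 and 222 in replicates 1, 2 and 3 (277 ± 91.2, SD, n = 3). The second ranked 1334 in the pooled list, 1121 in replicate 2 and 1482 in replicate 3. In replicate 1 both had the same counterpart, a single region with its summit at 3827913, so the doublet was resolved in replicates 2 and 3 only. The second slp2 summit, at 3835790 and 1050 bp before its start, ranked 1826 in the pooled list, 1596 in replicate 2 and 2158 in replicate 3, and replicate 1 had no region within 150 bp of it. Replicate 1 also had a region at 3834211 with rank 1864. Its pooled counterpart, at 3834125, ranked 3677 and had not entered the optimal list. The counterparts of that pooled summit ranked 5074 in replicate 2 and 3732 in replicate 3. Downstream of slp2, 2034 bp past its end, replicate 3 had a region of rank 1292 whose counterparts ranked 3179 in replicate 2 and 15455 in replicate 1. At the start of slp1 itself, the pooled list had a region 6 bp inside the gene with rank 5059 (q = 0.0116).

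**Figure D2:**
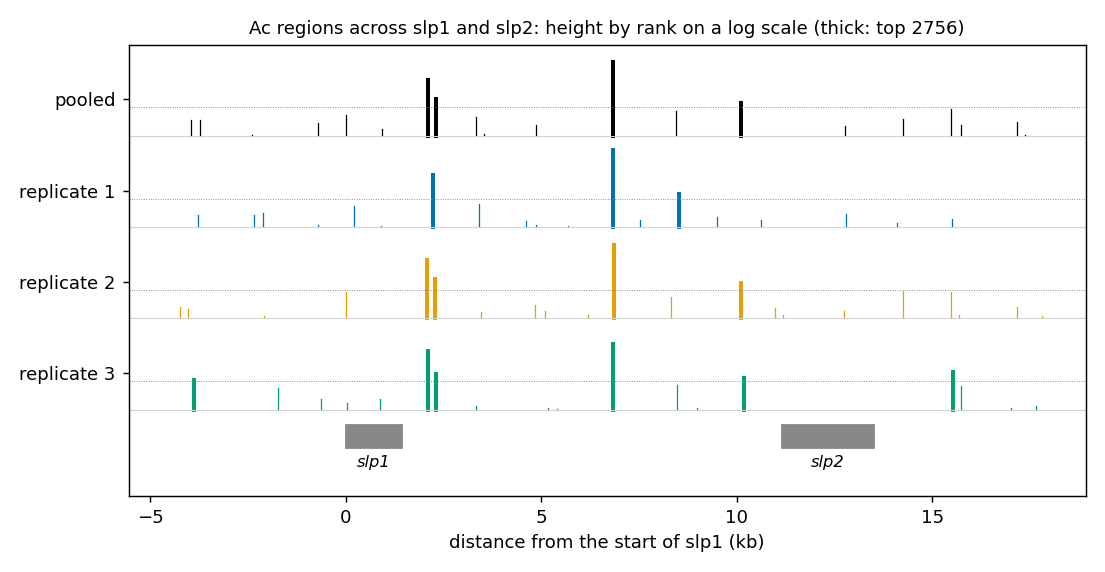
Ac regions across slp1 and slp2, by distance from the start of slp1 (kb), in the pooled list and the 3 replicates. Bar height rises with rank on a log scale, thick bars are among the 2756 strongest of their list (dotted line) and grey boxes are the genes. The region ranked 59 in the pooled list is the tallest bar in all 4 rows, and the thick pooled bars all stand between the genes.

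The 4 stretches of the plus strand of dm6 that follow are each 201 bp long and centred on a summit. They are shown because they hold the strongest pair-rule regions and the members' 2 optimal peaks with the Ac E-box. Capitals mark matches, on either strand, of any E-box (CANNTG), of the form bound by Ac or Scute with Da (GCAGCTG or GCAGGTG), and of GGTCACA.
slp2, rank 59, chr2L:3832422-3832622: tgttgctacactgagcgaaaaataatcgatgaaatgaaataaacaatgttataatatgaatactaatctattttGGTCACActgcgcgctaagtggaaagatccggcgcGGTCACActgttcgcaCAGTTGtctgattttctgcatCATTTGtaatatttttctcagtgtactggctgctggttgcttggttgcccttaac
slp1, rank 273, chr2L:3827665-3827865: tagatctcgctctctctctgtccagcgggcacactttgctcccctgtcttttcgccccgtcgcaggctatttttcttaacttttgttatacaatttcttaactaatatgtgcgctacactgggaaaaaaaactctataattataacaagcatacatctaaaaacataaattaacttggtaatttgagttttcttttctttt
slp2, rank 1826, chr2L:3835690-3835890: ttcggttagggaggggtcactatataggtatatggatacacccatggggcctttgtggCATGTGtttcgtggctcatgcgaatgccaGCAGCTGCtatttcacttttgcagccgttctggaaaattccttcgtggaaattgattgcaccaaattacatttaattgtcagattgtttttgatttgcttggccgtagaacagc
opa, rank 1732, chr3R:4866167-4866367: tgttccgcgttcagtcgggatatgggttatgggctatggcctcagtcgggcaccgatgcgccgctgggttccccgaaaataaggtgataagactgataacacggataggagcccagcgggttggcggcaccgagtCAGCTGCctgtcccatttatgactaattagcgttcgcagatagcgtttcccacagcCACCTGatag

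The rank-59 sequence held 2 E-boxes, CAGTTG and CATTTG, neither of the Ac form, 25 to 30 bp and 46 to 51 bp from the summit. It held GGTCACA in 2 direct copies, at 26 to 20 bp before and 9 to 15 bp after the summit. GGTCACA is the core of a promoter element bound by the zinc finger protein M1BP. It was searched for after this sequence had been read, so its presence here is a description. Of all optimal summits 2.1% had it within 100 bp, and this summit was the only one with at least 2 (0.0363% of the list). The stronger slp1 summit had no CANNTG in its window. It had 3 overlapping matches of GAGAG, the core of the GAGA factor site, 91 to 83 bp before the summit, and the homeodomain core TAATTA 36 to 41 bp after it. The weaker slp1 summit had no CANNTG either. The slp2 summit nearer its start, rank 1826, had the Ac E-box GCAGCTG on both strands, in 2 matches that overlap by 6 of 7 bases and so make 1 palindromic site, ending 6 bp before the summit.

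opa encodes a zinc finger protein of the Zic family, expressed in a broad domain rather than in stripes. It lies on the plus strand of 3R from 4852813 to 4869979 (FBgn0003002) and had 3 optimal summits, the most of any member. One was at its promoter, at 4852719, 94 bp before the start. The others were in its intronic sequence at 4866267 and 4867813, 1546 bp apart and 13454 and 15000 bp after the start. For both, the nearest protein-coding start was that of laf, 12266 and 10720 bp away. The summit at 4866267 ranked 1732 in the pooled list, and 2904, 2770 and 1188 in replicates 1, 2 and 3 (2287 ± 954, SD, n = 3). The one at 4867813 ranked 1749, and 3024, 1907 and 1638 in the replicates (2190 ± 735, SD, n = 3). The promoter summit ranked 2591, close to the end of the list, and 11509, 2793 and 1562 in replicates 1, 2 and 3 (5288 ± 5423, SD, n = 3). All 3 stood highest in replicate 3 and lowest in replicate 1, where the promoter region had a q value of 0.374. Of the opa summits, none was in the top regions of all 3 replicates, and the one at 4867813 was in those of 2.

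The opa window held other regions of middling rank. Another intronic summit, at 4863923, ranked 2792 in the pooled list, just below the last optimal peak, and 4375, 2492 and 2516 in replicates 1, 2 and 3. Replicate 3 alone had 6 top regions at opa, replicate 2 had 2 and replicate 1 had 1, which lay 1106 bp past the gene's end. The summit at 4866267 held 1 GCAGCTG, on the minus strand 35 to 41 bp away, whose CAGCTG core is an E-box, and a CAGGTG core 91 to 96 bp away. A further intronic region at 4865426 (pooled rank 6285, q = 0.0276) had the same E-box 1 bp from its summit, in the 30 bp chr3R:4865415-4865444, gcaaacaactctGCAGCTGtacacaaaacg, with the match in capitals. The promoter summit had no CANNTG in its window.

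odd encodes a zinc finger repressor and gives its name to a family of such genes. It lies on the minus strand of 2L from 3604224 to 3606756 (FBgn0002985). Its optimal summit, at 3601031, was 3193 bp past the 3′ end. The peak ranked 1517 in the pooled list, and 1555, 2341 and 1216 in replicates 1, 2 and 3 (1704 ± 577, SD, n = 3), so it was in the top regions of every replicate. It had CACTTG and CAGCTG, the second 45 to 50 bp from the summit and not of the Ac form. A region at the start of odd held the Ac form. It ranked below the optimal summit in the pooled list and in replicate 3, but above it in replicate 2, where it was the best region of odd. Its summit at 3606771 was 15 bp before the start and ranked 3039 in the pooled list (q = 0.000823), 1395 in replicate 2 and 5103 in replicate 3, with no counterpart in replicate 1. Another at 3607266, 510 bp before the start, ranked 4731. Each held 1 palindromic GCAGCTG site, shown in capitals in 30 bp of the plus strand.
odd, in the region 15 bp before the start, chr2L:3606826-3606855: gcccgaccaacgGCAGCTGCctgtggcggg
odd, in the region 510 bp before the start, chr2L:3607261-3607290: tcagcaggagcaGCAGCTGCacgaaggtcc

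**Figure D3:**
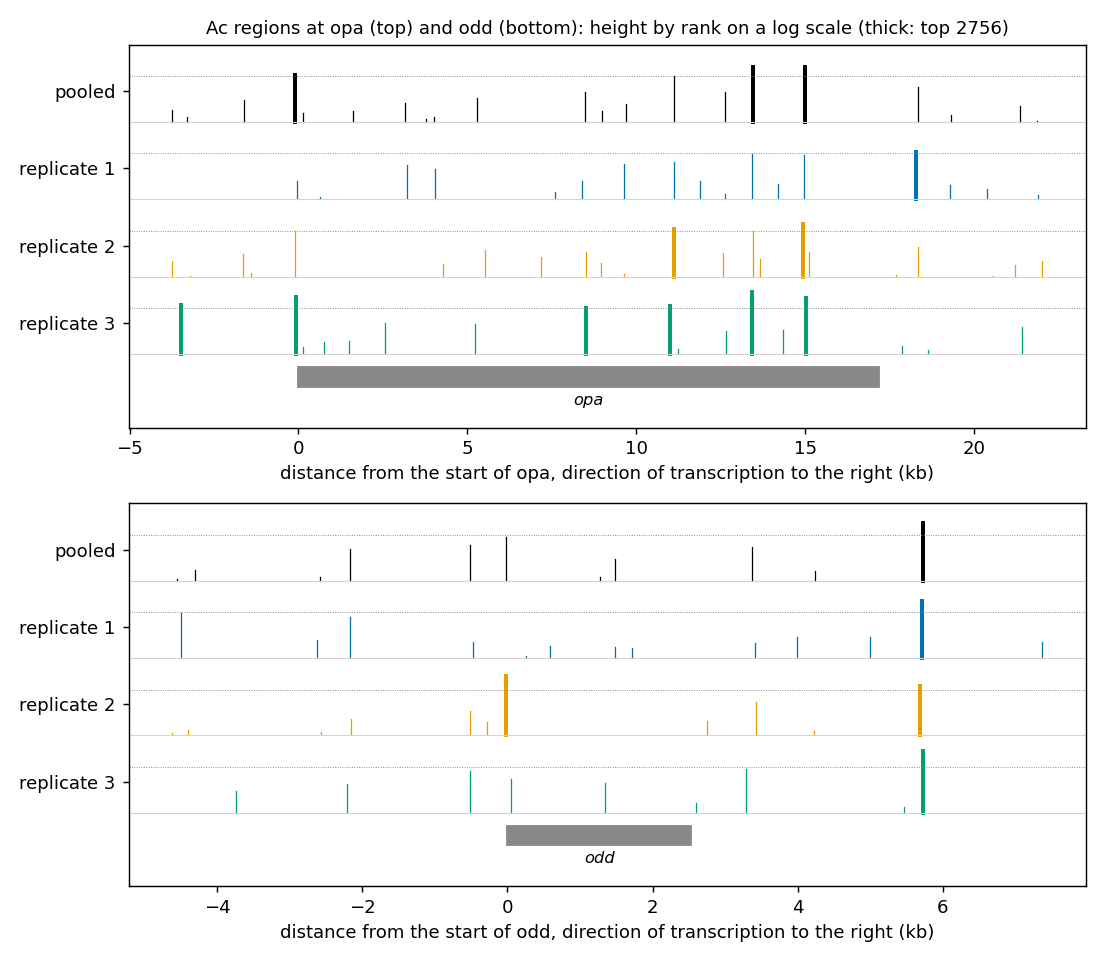
Ac regions at opa (top) and odd (bottom), by distance from the start of the gene (kb, transcription to the right), in the pooled list and the 3 replicates. Bar height rises with rank on a log scale and thick bars are among the 2756 strongest of their list (dotted line). The odd region 3193 bp past the gene is thick in all 4 rows, while at opa replicate 3 has 6 thick bars and replicate 1 has 1.

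prd, which encodes a protein with a paired domain and a homeodomain, came closest to the optimal list without entering it. It is on the minus strand of 2L from 12082995 to 12085827 (FBgn0003145). Its best pooled region, with the summit at 12081319, 1676 bp past the 3′ end, ranked 2847 (q = 0.000878). The counterparts ranked 2513, 3328 and 8979 in replicates 1, 2 and 3, so only replicate 1 had it among its top regions. The best region of replicate 3 was elsewhere, at 12090009, 4182 bp before the start (rank 3974, q = 0.00289). No other list had a region within 150 bp of that summit, and the nearest start was that of Pex19, 1813 bp away. The nearest optimal summit lay 6852 bp from prd, just outside the counted distance, at rank 1886 and 43 bp from the start of CG14947. For opa the nearest one outside was 5177 bp away, at rank 2383, and for slp2 it was 5857 bp away, at rank 2717. The optimal summit counted at the largest distance was the one 4318 bp before slp2.

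ftz encodes a homeodomain protein and sits within the Antennapedia complex on 3R, from 6864324 to 6866244 on the plus strand (FBgn0001077). Its best pooled region was at its promoter, with the summit at 6864009, 315 bp before the start. That region ranked 3490 (q = 0.00215), and 7643, 8700 and 1955 in replicates 1, 2 and 3. Replicate 3 stood apart from the others, and it alone had a top region at ftz. The best regions of replicates 1 and 2 were elsewhere, 973 bp and 2620 bp after the start (ranks 4629 and 5194).

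eve encodes a homeodomain repressor and its stripe enhancers are a textbook case of stripe formation. It is on the plus strand of 2R from 9979319 to 9980795 (FBgn0000606). No list had a top region within 5000 bp of it, and its best ranks were close together, at 3752, 3690 and 3653 in replicates 1, 2 and 3 (3698 ± 50.02, SD, n = 3). They did not mark the same place. Replicates 1 and 3 had their best region at the start, at 100 and 11 bp inside the gene. Replicate 2 had its best 4905 bp before the start, nearer to the start of CG12134, 3056 bp away. In the pooled list these 2 places ranked 4812 (q = 0.00863) and 4360 (q = 0.00516). Another pooled region at q of at most 0.05 had its summit 3047 bp before the start (q = 0.0454). No E-box of the Ac form lay within 100 bp of the 3 summits. The nearest optimal summit, of rank 64, was 19391 bp away and 150 bp from the start of Pal1.

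run encodes the founding Runt-domain protein and is the X-linked member, on the plus strand from 20690670 to 20697321 (FBgn0003300). It had 12 pooled summits but none at q of at most 0.05, the best being rank 8099 (q = 0.0654) 1451 bp before the start. The best ranks were 5165, 6308 and 5784 in replicates 1, 2 and 3 (5752 ± 572, SD, n = 3), at 3 different places. Replicate 1 had 1 region in the whole window, 3300 bp past the gene. Replicate 2 had its best 47 bp from an internal start, and replicate 3 had its best 1267 bp before the first start. The nearest optimal summit was 35447 bp away.

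ftz-f1 encodes a nuclear receptor that is a cofactor of Ftz, is supplied maternally and has no striped expression of its own. It is the longest member, 50703 bp on the minus strand of 3L from 18750607 to 18801309 (FBgn0001078). In the pooled list and in replicate 2, no region lay inside it or within 5000 bp. The stretch of 3L without a pooled summit ran from 18744658 to 18814307, or 69.6 kb, against a median of 1.37 kb between neighbouring pooled summits. Gaps of at least this length numbered 269 of 29993 in the genome. Of the 313 genes at least 50 kb long, 50 (16.0%) had no pooled summit under the same rule. Replicate 1 had 2 regions at ftz-f1, the better at rank 18942 (q = 0.556), and replicate 3 had 1, in an intron 5542 bp after the outermost start, at rank 3962 (q = 0.0029). These were at different places.

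**Figure D4:**
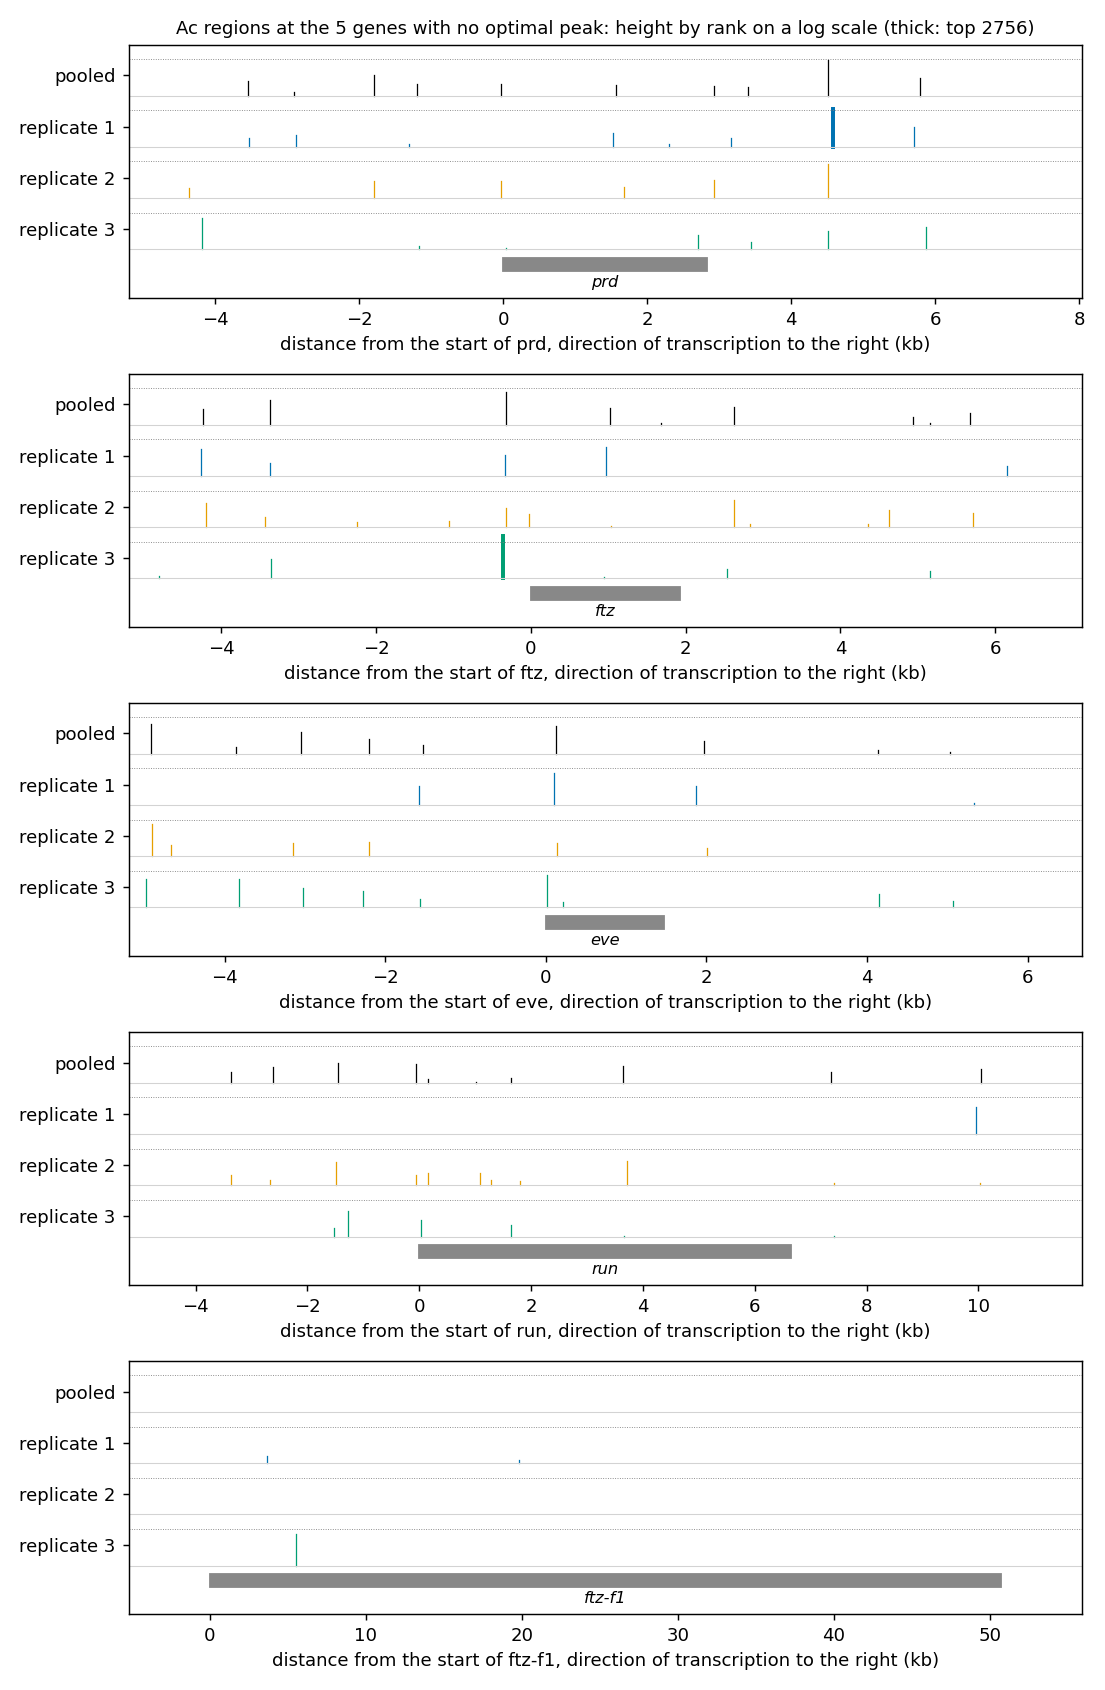
Ac regions at prd, ftz, eve, run and ftz-f1, the members with no optimal peak, by distance from the outermost start (kb, transcription to the right), in the pooled list and the 3 replicates. Bar height rises with rank on a log scale and thick bars are among the 2756 strongest of their list (dotted line). Thick bars appear only for replicate 1 at prd and replicate 3 at ftz, and the pooled row of ftz-f1 is empty.

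Apart from ftz-f1, the pair-rule genes lay in stretches dense with pooled-list regions of any rank. The 9 windows held 94 distinct pooled summits, of which 27 had a q value of at most 0.05. From 7.21 per 10 kb at run to 10.5 per 10 kb at slp1, the density at 8 members was above the middle 50% of all genes (0.756 to 4.33 per 10 kb, median 2.40). Of all protein-coding genes 5.23% were at least as dense as run. Among the 647 genes with no coding neighbour in the window, the median was 0.781 and the middle 50% 0 to 4.42 per 10 kb. By its label the pooled list holds peaks and background, so this is a density of listed regions and not of strong peaks. A dense window did not need a strong region: slp2 and eve had 8.10 and 7.84 summits per 10 kb, with best pooled ranks of 59 and 4360.

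**Figure D5:**
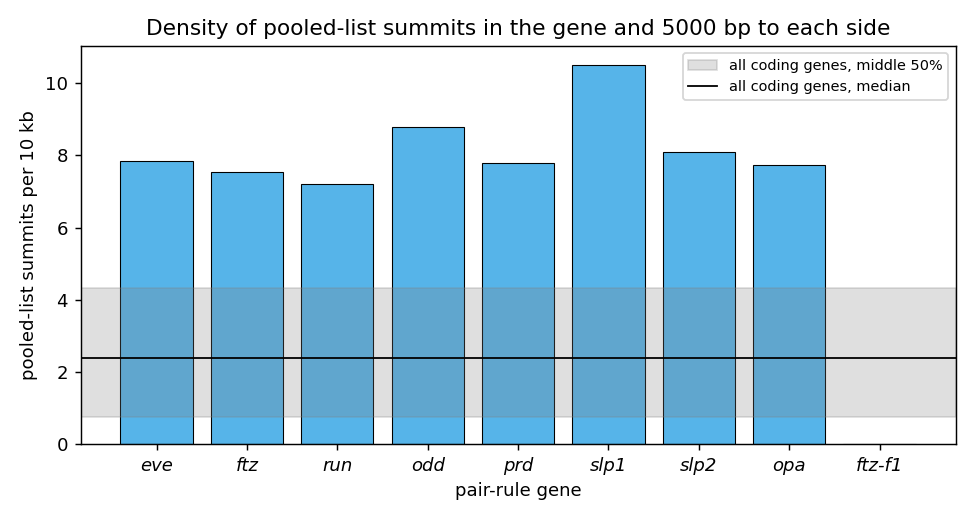
Pooled-list summits per 10 kb of gene plus 5000 bp to each side, for each pair-rule gene (bars), against the median and middle 50% of all 13968 protein-coding genes (line and grey band). The bars of 8 genes stand between 7.21 and 10.5 and ftz-f1 is at 0.

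The 8 optimal summits were mostly away from the starts of protein-coding genes, the only genes used here. One (12.5%, exact 95% interval 0.316 to 52.7%) was within 500 bp of such a start, against 37.2% of all optimal summits. Sequence outside protein-coding genes and their promoters, called intergenic here, held 5 (62.5%, 24.5 to 91.5%). Over all optimal summits it held 23%, just under the lower bound. Of these 5, 2 were the slp1 summits, whose peaks cover nearly the same bases. The share with those peaks counted as 1 was not computed, so no difference from 23% is read from it. Introns held 2 (25%, 3.19 to 65.1%), against 37.4%. With 4 of the 8 in the slp1 to slp2 interval, these are not independent sites, and the intervals cover counting error only. No other protein-coding gene reached into the windows holding these summits, and the same shares over summits at such isolated genes were not computed. In the top regions of all 3 replicates there were 4 (50%, 15.7 to 84.3%), against 47.5% of all optimal summits, and they were the 2 slp1 summits, the rank-59 slp2 summit and the odd summit. Both slp1 summits were counted in replicate 1 through the same single region, 148 bp from the stronger summit and 59 bp from the weaker. With summits within 75 bp counted as shared, in place of 150 bp, 37.5% were in the top regions of all 3 replicates, and the stronger slp1 summit was not among them. No opa summit was in the top regions of all 3 replicates at either distance.

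The Ac E-box was at 2 of the 8 summits (25%, 3.19 to 65.1%), against 17.9% of all optimal summits, and any CANNTG at 5 (62.5%, 24.5 to 91.5%), against 69.4%. Over the 27 pooled summits with q of at most 0.05, 5 had the Ac E-box (18.5%, 6.30 to 38.1%), against 15.2% of all such pooled summits. These were 2 at odd, 2 at opa and 1 at slp2. Over all 94 pooled summits of the members, whatever their q value, 8 had it (8.51%, 3.75 to 16.1%), against 11.1% of all pooled summits. The GAGAG core was at 3 of the 8 (37.5%, 8.52 to 75.5%), against 28.9%, TAATTA at 2 (25%, 3.19 to 65.1%), against 12.6%, and GGTCACA at 2, slp2 and opa, against the 2.1% given above. The core of the Zelda site (CAGGTAG), that of DREF (TATCGAT) and a sequence bound by nuclear receptors such as Ftz-F1 (AAGGTCA) had no match at the 8 summits, which allows a share of up to 36.9% (exact 95% interval). In all optimal summits they were at 2.58%, 3.45% and 1.31%. Each of these motif intervals includes the share over all summits of its list, except that of the 2 GGTCACA sites (25%, 3.19 to 65.1%), for which the motif was chosen after reading one of them. The summit windows had 33.3 to 55.7% G and C, against a median of 38.8% over all optimal summits, with the highest value at the opa summit of rank 1732.

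Genes around the pair-rule step of the cascade were counted in the same way, against the 28.2% of all genes with an optimal summit. The counted window grows with gene length, and neither these counts nor those of the relatives and partners below were matched for length. Nor were their windows checked for other protein-coding genes, so a summit counted for a listed gene may belong to a neighbour. hairy (hry), a primary pair-rule gene that is not among the 9, had 1 summit, at rank 1522 and 54 bp after its start. Of 5 other genes listed for a reported pair-rule function or input to stripes, all had a summit. Whether each has such a role was not examined here. Their best ranks were 222 at Stat92E, a JAK pathway transcription factor, 514 at Ten-m, which encodes a transmembrane protein, 516 at cad, a posterior homeodomain factor, 1028 at the Sox gene D and 1296 at zld, the gene of the zygotic activator Zelda. Upstream, 4 of 9 maternal and gap regulators had one, led by bcd (rank 225, 3522 bp before its start), with knrl (1404), hb (1436) and hkb (2428). nanos, kni, tll, Kr and gt had none, and their best pooled ranks were 2770, 4415, 5487, 6287 and 8615. Downstream, 8 of 10 segment polarity genes had one, led by nkd (rank 93) and ptc (rank 381), each with 5 summits. The remaining 6 were ci (1034), hh (1542), wg (1751), en (2398), gsb-n (2491) and inv (2705), and gsb and mid had none.

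Among 23 close relatives of the members by sequence or gene cluster, 11 had an optimal summit. The other odd-skipped family genes all did, bowl with 4 (best rank 383), drm with 1 (rank 585) and sob with 3 (rank 1188). The other Runt-domain genes did not, with best pooled ranks of 4609 at lz and 27385 at RunxA and no pooled region at RunxB. Hr39, the nuclear receptor most like ftz-f1, had none (best rank 3767). Of forkhead genes, fkh had 2 summits (best rank 462), and fd59A, fd96Ca and fd96Cb had none. The others with a summit were Antp, which had 8 (best rank 401), Poxm (703), ci, Abd-B (1727), ey (2321), gsb-n and Scr (2739). The 3 partner genes all had one. gro, encoding the co-repressor Groucho, had rank 11, with the summit 1620 bp before its start. Bgb and Bro, encoding partners of Runt-domain proteins, shared 1 summit of rank 448. Lists overlap in ci, gsb and gsb-n.

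The genes whose best ranks over the 3 replicates were most like those of slp2 were CG13994, Kr-h2 and Fbw5. All had 46, 66 and 133 in replicates 1, 2 and 3, against 45, 64 and 117 for slp2 (Euclidean distance of log10 ranks 0.0580, over 3 replicates), because they share 1 region of pooled rank 57.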

How the data were processed

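Peak lists on dm6 were used as deposited. Per the notes that came with the deposited files, the authors made 1 list per replicate and a pooled list over all 3, each against a control alignment, and the optimal list from these lists. File labels call the inputs peaks and background for the irreproducible discovery rate (IDR). The peak caller, its version and the IDR threshold: not given in the sources used here. The deposited signal value has no stated scale and served to rank regions within 1 list. The −log10 q value deposited for each region was turned into q. Sonicated fragments were 200 to 800 bp, per the labels. The dm3 lists and the control were not analysed here.

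Genes were the 13968 protein-coding genes of Ensembl release 115 (BDGP 6.54) on 2L, 2R, 3L, 3R, 4, X and Y, and sequence came from the RefSeq release 6 assembly. All regions fitted its chromosome lengths. Coordinates count from 1. Summits within 150 bp counted as shared and within 500 bp of a protein-coding gene's start as promoter. Starts and bodies of other gene types were not used. Motifs were sought within 100 bp of the summit on both strands, overlaps counted. Named were all members, their strongest regions, genes most like slp2 in rank, and list genes with an optimal summit. Some genes with the start nearest to a region are named too. List genes without an optimal summit are named with their ranks after their values were seen. Members and lists were chosen with earlier results of these data known. No test was run, since there is 1 group. Python 3.11.15, pandas 2.3.3 and SciPy 1.17.1 were used, and assignment, matching and motif counting were tested on simulated data.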

Additional observations from a re-analysis of the deposited data

How the results depend on the processing

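The counts depended on the distance and list length. With summits inside the gene only, 1 member (opa) had an optimal summit, and 2 summits were counted. With 10000 bp the counts were 5 members and 13 summits, and with the 1000 strongest peaks 2 members and 2 summits. Leaving out each replicate in turn, and counting only optimal summits among the top regions of both others, gave 3 to 4 members and 4 to 6 summits; the main counts need no replicate. The mean number of members with a top region per replicate, 4.67, was 3.67 with 2000 bp, 0.667 inside the gene, 2 with the 1000 strongest regions per replicate and 7.33 at q of at most 0.05, and 4.5 to 5 with a replicate left out. Without a q threshold, 94 pooled summits were counted in place of 27. Of 36 alternative values 24 stayed near the main one, by the count's ratio, the SD of the mean or the 95% interval of the share. All 12 alternatives for shares did, but their intervals were too wide for this to show stability. The interval was 15.7 to 84.3% for presence in the top regions of all 3 replicates and 3.19 to 65.1% for the Ac E-box. The first share was 50%, with alternatives from 37.5% (75 bp) to 75% (without replicate 1). The second was 25%, with alternatives from 23.1% (within 10000 bp) to 50% (inside the gene only). No paired analysis was possible because there is 1 group. Unknown depth limits every statement that a region is missing from a replicate.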
